A study of Homo sapiens with 8 samples.

Results

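PML, SP100, SP110, SP140L, TRIM14, TRIM21, TRIM25, TRIM26, TRIM38 and TRIM69 encode components of PML nuclear bodies and tripartite motif (TRIM) proteins known to respond to interferon. These 10 genes were taken by symbol from the deposited count table, and all 10 were found among its 24462 symbols. The table holds 8 RNA sequencing libraries of 4 established human cancer cell lines, the kidney carcinoma line A498, the skin melanoma line A375, and H1703 and a line labelled 549, both from lung cancer. Each line was either left untreated or given recombinant human IFN-gamma at 20 ng/ml, with 72 hours stated for the treatment, and each line and arm gave 1 library. No genetic change was made to any line, per the labels, and no line has a second culture, so the 4 lines served as the replicates.

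PML is the scaffold of PML nuclear bodies, dot-like structures of the nucleus that are held together by attachment of the small modifier SUMO and that concentrate SP100 and many other proteins. SP110 and SP140L belong to the SP100 family of chromatin readers, whose members carry a SAND domain. TRIM proteins typically combine a RING finger, B-box domains and a coiled coil, and many of them act as ubiquitin ligases in antiviral signalling. IFN-gamma signals through JAK kinases, acts on genes with gamma-activated sites (GAS) in their DNA and raises the factor IRF1. IRF1 and related factors bind interferon-stimulated response elements (ISRE).

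Total counts per library ranged from 6559933 to 9291154. All 8 melanoma markers examined reached a level of 1 CPM (the count scaled to a common library size with edgeR's TMM factors) in untreated A375, and 6 of 7 kidney carcinoma markers did so in untreated A498, where LRP2 was at 0. In treated A375, 6 of the 8 melanoma markers did so. Untreated A498, 549 and H1703 reached 1 CPM for 3, 2 and 2 melanoma markers. Their summed levels there were 59.0, 47.0 and 5.92 CPM, beside 1190 in untreated A375. Of 10 lung carcinoma markers, 5 reached 1 CPM in untreated 549 and 4 in untreated H1703, where SFTPC, NAPSA and KRT5 were at 0. The lung list did not set the lung lines apart, since untreated A498 reached 1 CPM for 3 of its genes with a summed level of 4682 CPM, beside 4338 in 549 and 234 in H1703, and untreated 549 reached 1 CPM for 5 of the 7 kidney markers. The summed level of 6 leukocyte markers was at most 5.71 CPM in any library. The log2 change with IFN-gamma was 4.57 ± 0.29 for IRF1 (SE over 4 lines, edgeR adjusted p = 0.00018). IRF1 had between 145 and 515 counts in untreated and between 4256 and 10579 in treated libraries.

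Across the 4 lines, 5 of the genes rose with IFN-gamma, namely SP100, SP110, TRIM21, TRIM25 and PML, and none fell. The fitted rises ran from 2.91-fold for PML to 6.09-fold for SP100. Of the 10 genes, 9 passed the filter on low counts and entered edgeR's quasi-likelihood test with a term for cell line, and 5 of those 9 passed an adjusted p of 0.05 as higher. For comparison, 1.59% of the 13457 genes tested were called higher and 0.327% lower. SP140L, TRIM38, TRIM14 and TRIM26 were not called, and TRIM69 was removed by the filter. The median fitted log2 change was 2.02 over the 9 tested genes (2.03 without TRIM38, which had 0 counts in 1 library) and -0.02 over all genes tested. These genes were listed because of known links to interferon, so their share of calls was not set against that of other lists. In bulk RNA, a change in a transcript per cell and a change in the share of cells carrying it cannot be told apart.

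**Figure D1:**
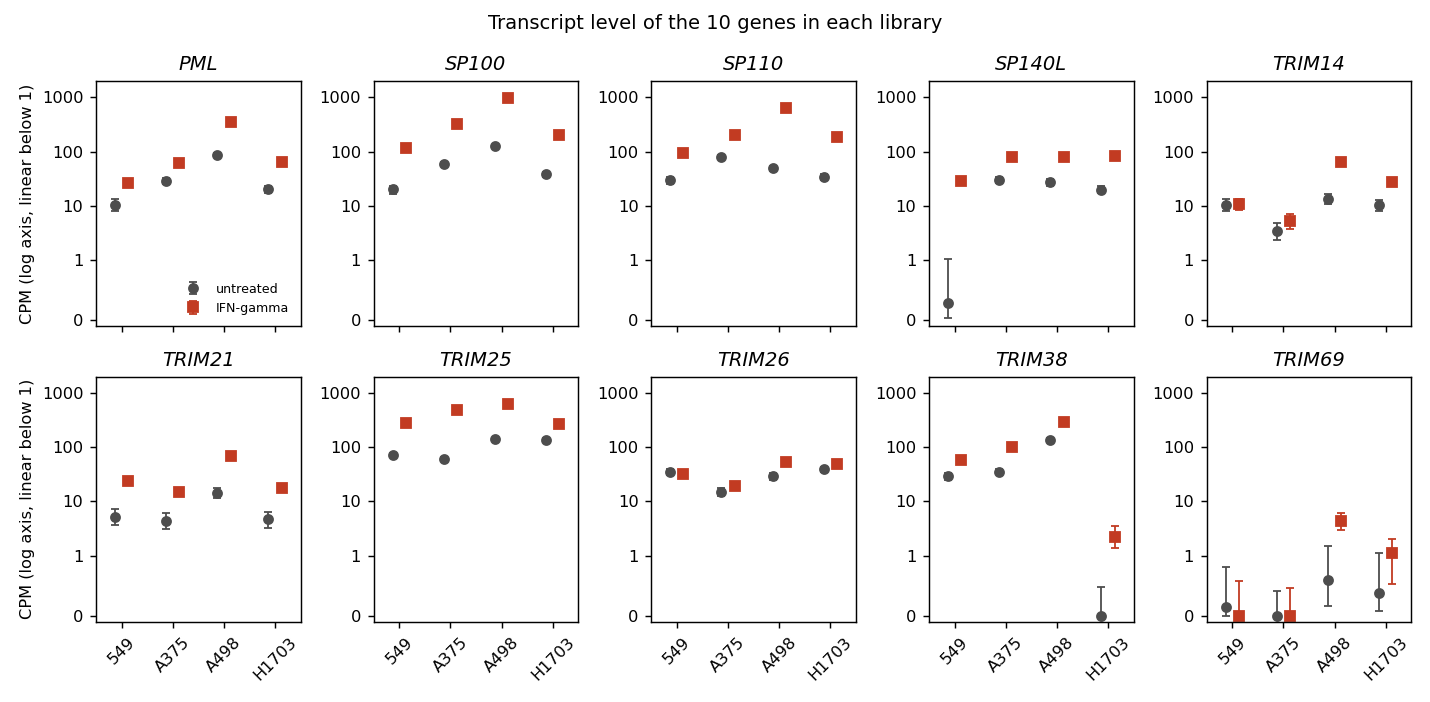
Level of each of the 10 genes in the 8 libraries, in CPM on a log axis that is linear below 1, with grey circles for untreated and red squares for IFN-gamma. Bars are exact 95% Poisson intervals, which cover counting error only. SP110, TRIM21 and TRIM25 were higher in every treated library than in any untreated one, SP140L was near 0 in untreated 549, and TRIM38 was at 0 in untreated H1703.

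PML and SP100 define the nuclear body itself. The PML level went from 84.9 to 347.4 CPM in A498, from 28.9 to 60.7 in A375, from 20.1 to 65.4 in H1703 and from 10.4 to 26.1 in 549. PML was thus higher after treatment within each line, but untreated A498 lay above treated 549, A375 and H1703, so the arms overlapped. PML rose, with a fitted log2 change of 1.54 ± 0.21 (edgeR adjusted p = 0.0064) and log2 ratios from 1.07 in A375 to 2.03 in A498. Without A498 the change was 1.36 and the call was lost (adjusted p = 0.051).

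SP100, the second resident protein of the body and the founder of its family, showed the largest change of the 9 and the smallest SE. Its level went from 20.0 to 116.2 CPM in 549, from 58.4 to 325.8 in A375, from 125.3 to 980 in A498 and from 38.2 to 206.3 in H1703. All 4 lines lay close together in log2 ratio, from 2.42 in H1703 to 2.96 in A498, although the levels themselves differed by 6.26-fold between lines untreated and 8.43-fold treated, and treated 549 lay below untreated A498. SP100 rose, with a fitted log2 change of 2.61 ± 0.18 (edgeR adjusted p = 0.00029), and was called whichever line was left out.

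SP110 and SP140L lie beside SP100 and SP140 on chromosome 2. SP110, a nuclear body protein linked in humans to an inherited immunodeficiency with liver disease, went from 29.3 to 93.7 CPM in 549, from 80.7 to 203.4 in A375, from 48.8 to 639.1 in A498 and from 34.5 to 189.3 in H1703. No treated library fell below an untreated one. SP110 rose, with a fitted log2 change of 2.28 ± 0.37 (edgeR adjusted p = 0.019), from a log2 ratio of 1.33 in A375 to 3.70 in A498. The call was lost without 549 (adjusted p = 0.058) or without H1703 (0.055). SP110 overlaps SP140 in the annotation, and the use of strand in counting is not given. SP140 had 41 counts in untreated A498 and 133 in treated A498, against 331 and 4815 for SP110.

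SP140L differed from SP100 in where its transcript was present at the start. Its level went from 29.97 to 79.2 CPM in A375, from 27.1 to 79.8 in A498 and from 20.0 to 81.4 in H1703, while in 549 it went from 0.290 CPM (2 counts) to 28.6 CPM (181 counts). Treated levels in A375, A498 and H1703 lay within 3 CPM of one another, and treated 549 was the lowest of the treated libraries, just below untreated A375. With a prior count of 2 the ratio was 52.4-fold in 549, against 2.63-fold, 2.92-fold and 4.04-fold in A375, A498 and H1703. The 549 ratio without a prior count was 98.6-fold (exact 95% interval 26.9 to 820.2, counting error only). The fitted log2 change over all 4 lines was 2.21 ± 0.53 (SE, edgeR adjusted p = 0.081). Without 549 it was 1.67 and was called (adjusted p = 0.020). It was not called without A375, A498 or H1703 (edgeR adjusted p = 0.087, 0.20 and 0.12). Of the 50-base words in SP140L transcripts, 10.8% also occurred in SP140 transcripts and none in SP100 or SP110 transcripts, so some reads of SP140L could be shared with SP140. SP140 itself did not pass the filter and had 41 and 133 counts (untreated and treated) for A498, 12 and 48 for A375, 6 and 6 for H1703 and 4 and 1 for 549.

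The promoter windows of these neighbours are shown because SP100 and SP140L carry almost the same sequence there. Each window runs from 250 bases before to 50 bases after an annotated transcript start (RefSeq, GRCh38.p14), on the strand of the gene. The SP100 window lies at chr2:230415951-230416250 on the plus strand, the SP140L window at chr2:230326943-230327242 on the plus strand, and the SP110 window at chr2:230219935-230220234 on the minus strand. Capitals mark the GAS core TTCNNNGAA and the octamer AAGTGAAA, which reads TTTCACTT on the other strand.
SP100: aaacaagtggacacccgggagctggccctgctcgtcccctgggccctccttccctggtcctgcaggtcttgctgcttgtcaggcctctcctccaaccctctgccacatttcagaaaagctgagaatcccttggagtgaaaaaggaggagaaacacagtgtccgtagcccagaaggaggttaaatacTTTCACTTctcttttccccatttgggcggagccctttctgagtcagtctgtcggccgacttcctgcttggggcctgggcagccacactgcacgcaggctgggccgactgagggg
SP140L: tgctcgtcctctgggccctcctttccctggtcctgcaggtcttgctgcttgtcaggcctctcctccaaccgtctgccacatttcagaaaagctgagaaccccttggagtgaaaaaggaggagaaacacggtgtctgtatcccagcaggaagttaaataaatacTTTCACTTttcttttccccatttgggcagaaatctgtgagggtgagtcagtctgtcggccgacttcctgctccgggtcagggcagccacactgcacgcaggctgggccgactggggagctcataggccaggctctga
SP110: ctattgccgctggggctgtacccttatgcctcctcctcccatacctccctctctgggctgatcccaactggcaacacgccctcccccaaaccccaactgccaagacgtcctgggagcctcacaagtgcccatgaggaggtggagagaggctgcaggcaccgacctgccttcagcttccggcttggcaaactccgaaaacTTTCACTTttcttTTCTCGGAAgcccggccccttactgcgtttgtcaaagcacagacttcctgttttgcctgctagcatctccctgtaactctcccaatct

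The SP100 and SP140L windows matched at 253 of 272 aligned bases (93%), while the other pairs among the 5 windows of SP100, SP110 and SP140L matched at 66.7% to 77.0%. The octamer lay 64 bases before the start of SP100, 87 before that of SP140L and 51 before that of SP110. A second SP110 window held it 97 bases before its start. The GAS core of SP110 began 38 bases before its start.

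The TRIM genes ranged from rises of about the same size in every line to ratios near 0. TRIM21, a cytosolic antibody receptor and ubiquitin ligase also known as the Ro52 autoantigen, went from 5.22 to 23.8 CPM in 549, from 4.39 to 14.8 in A375, from 14.5 to 68.2 in A498 and from 4.63 to 17.4 in H1703. Every treated library lay above every untreated one, with treated A375 only just above untreated A498. TRIM21 rose, with a fitted log2 change of 2.03 ± 0.21 (edgeR adjusted p = 0.0016) and log2 ratios from 1.70 to 2.22, and was called whichever line was left out.

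TRIM25, the ubiquitin ligase that modifies the RNA sensor RIG-I, had a similar fitted change but spread more between lines. Its level went from 72.1 to 280.2 CPM in 549, from 60.8 to 478.8 in A375, from 138.6 to 637.5 in A498 and from 136.2 to 263.9 in H1703. Again no treated library fell below an untreated one. TRIM25 rose, with a fitted log2 change of 2.02 ± 0.31 (edgeR adjusted p = 0.013), the smallest log2 ratio, 0.95, in H1703 and the largest, 2.97, in A375. The call was lost without 549 (adjusted p = 0.074) or without A498 (0.079).

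Beside SP110, TRIM21 and TRIM25, no other member had all treated libraries above all untreated ones. That separation held for 3 of the 9 tested genes and for 1.78% of all genes tested.

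TRIM38, a TRIM protein that restrains innate signalling by promoting loss of the adaptors TAB2 and TAB3, was at 28.997, 35.1 and 136.4 CPM in untreated 549, A375 and A498 and at 57.2, 101.0 and 285.6 CPM after treatment. In H1703 it had 0 counts untreated, which allows up to 0.386 CPM at a limit of 3 counts (the exact two-sided 95% interval reaches 0.475), and 20 counts treated (2.23 CPM, interval 1.36 to 3.45). The treated H1703 library lay below every library of the other lines, so the arms overlapped. Against 3 counts, TRIM38 was at least 5.78-fold higher in treated than in untreated H1703, leaving aside the counting error of the 20 treated counts, beside 1.96-fold in 549, 2.86-fold in A375 and 2.09-fold in A498. Untreated 549, A375 and A498 were at least 75.1-fold, 91.0-fold and 353-fold above untreated H1703 on the same bound. The fitted log2 change of 1.38 ± 0.34 (SE, edgeR adjusted p = 0.083) depends on how the 0 is handled. Without H1703 it was 1.18 and was called (adjusted p = 0.036). It was not called without 549, A375 or A498 (edgeR adjusted p = 0.22, 0.18 and 0.24).

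TRIM14, which lacks a RING finger and acts as an adaptor at mitochondria in antiviral signalling, split the lines. It went from 13.4 to 64.2 CPM in A498 and from 10.3 to 27.7 in H1703, but was 10.4 and 10.6 CPM in 549 and 3.40 and 5.24 in A375, and the arms overlapped. The log2 ratios were 2.24, 1.40, 0.02 and 0.59 in that order, and the fitted change of 1.14 ± 0.36 (SE) had an edgeR adjusted p of 0.13. TRIM14 overlaps NANS in the annotation. NANS had 563 and 486 counts in untreated and treated A498, 436 and 534 in H1703, 504 and 252 in A375 and 227 and 242 in 549. Whether reads of NANS entered the TRIM14 counts was not tested.

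TRIM26, a TRIM gene of the major histocompatibility region, was the member with the smallest fitted change. Its untreated and treated levels were 28.9 and 53.1 CPM for A498, 39.1 and 49.7 for H1703, 14.7 and 19.5 for A375 and 34.7 and 32.5 for 549. The arms overlapped and 549 had a ratio below 0 (-0.09). The fitted log2 change was 0.38 ± 0.20 (SE, edgeR adjusted p = 0.31). The table lists TRIM26 in 8 rows, of which 7 are at 0 in all libraries.

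TRIM69, a TRIM protein with reported antiviral activity, was barely detected. It had 4 and 33 counts in untreated and treated A498, 3 and 10 in H1703, 1 and 0 in 549 and 0 in both libraries of A375. The ratio in A498 was 7.43-fold, with an exact 95% interval from 2.64 to 28.9, and in H1703 it was 2.89-fold, with an interval from 0.744 to 16.3 that includes no change. A difference in 549 or A375 was not detectable at this depth. With no filter, the fitted log2 change of TRIM69 over all lines was 1.77 ± 1.07 (SE, edgeR adjusted p = 0.48), which was not called.

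**Figure D2:**
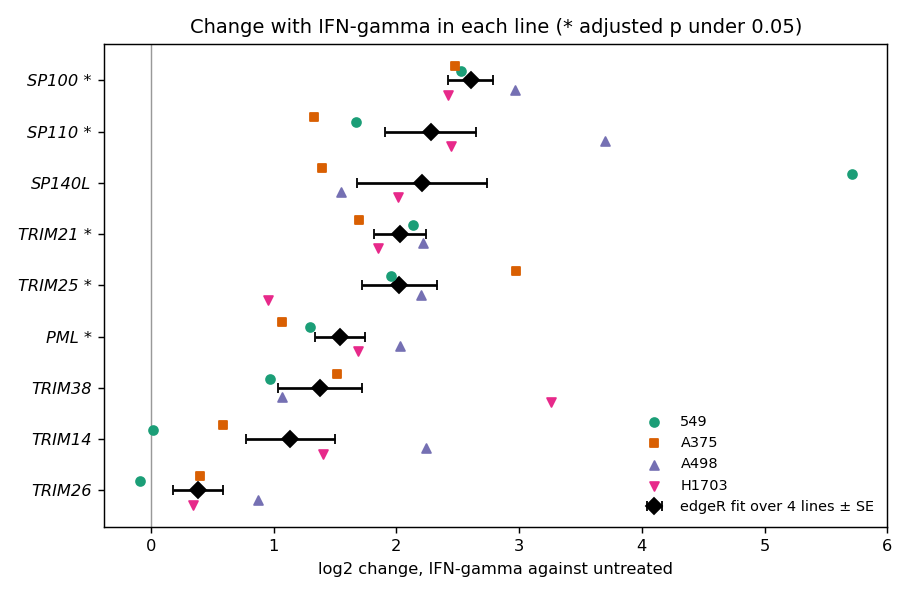
Change with IFN-gamma for the 9 tested genes on the log2 scale. Black diamonds are the edgeR fit over 4 lines with its SE, coloured symbols are the ratios of single lines, which have no replicate check, and an asterisk marks an adjusted p under 0.05. SP100 and TRIM21 have the lines close together, while SP140L in 549 (5.71) and TRIM38 in H1703 (3.26, depending on the prior count) lie far from their other lines.

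Promoter windows of TRIM21, TRIM14, TRIM26 and TRIM38 are shown because they hold the ISRE core or the octamer beside very different responses. The ISRE core searched was GAAA, any 2 bases and GAAA again, on both strands. The TRIM21 window lies at chr11:4393653-4393952, that of TRIM14 at chr9:98119173-98119472 and that of TRIM26 at chr6:30213357-30213656, all on the minus strand, and that of TRIM38 at chr6:25962552-25962851 on the plus strand (RefSeq, GRCh38.p14). Capitals mark matches to the ISRE core and to the octamer.
TRIM21: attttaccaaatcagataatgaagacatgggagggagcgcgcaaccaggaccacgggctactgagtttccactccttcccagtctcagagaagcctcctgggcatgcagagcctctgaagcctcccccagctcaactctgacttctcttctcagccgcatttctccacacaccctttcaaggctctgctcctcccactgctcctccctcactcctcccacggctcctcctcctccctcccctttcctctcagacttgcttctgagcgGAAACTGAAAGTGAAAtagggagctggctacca
TRIM14: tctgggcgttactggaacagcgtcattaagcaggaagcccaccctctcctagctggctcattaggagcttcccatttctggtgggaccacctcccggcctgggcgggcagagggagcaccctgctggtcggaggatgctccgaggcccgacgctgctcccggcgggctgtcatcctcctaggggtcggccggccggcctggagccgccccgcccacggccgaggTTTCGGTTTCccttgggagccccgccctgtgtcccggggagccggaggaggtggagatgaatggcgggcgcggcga
TRIM26: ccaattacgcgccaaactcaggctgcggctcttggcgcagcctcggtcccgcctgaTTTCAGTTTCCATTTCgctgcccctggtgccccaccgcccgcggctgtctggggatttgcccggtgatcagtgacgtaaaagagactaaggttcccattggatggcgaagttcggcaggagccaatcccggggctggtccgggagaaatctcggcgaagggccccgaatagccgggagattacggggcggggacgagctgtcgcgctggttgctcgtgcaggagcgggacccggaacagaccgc
TRIM38: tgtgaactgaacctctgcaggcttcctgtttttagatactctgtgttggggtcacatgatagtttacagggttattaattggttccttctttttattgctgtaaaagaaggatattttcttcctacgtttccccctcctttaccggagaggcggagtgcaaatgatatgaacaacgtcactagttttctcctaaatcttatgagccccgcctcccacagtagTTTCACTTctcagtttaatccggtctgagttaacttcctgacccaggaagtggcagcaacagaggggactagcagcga

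TRIM21 had 2 overlapping ISRE cores that began 18 and 24 bases after its start, and the second also contains the octamer. TRIM14, which was not called, had 1 ISRE core, 26 bases before its start. TRIM26, also not called, had 2 overlapping cores 194 and 188 bases before its start, and TRIM69 had 1 at 62 bases. In all, 11 windows of 9 members were in the table, and the ISRE core was in 4 of them, the GAS core in 1 and the octamer in 6. PML had no window there and was not searched. Of all 35116 promoter windows of the same length, 3.57% held the ISRE core, 7.66% the GAS core and 1.62% the octamer. The octamer was picked by eye from these same windows, so its count is a description of them and no more. No core or octamer was found in the TRIM25 window or in the second SP100 window, which says nothing of sites elsewhere.

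**Figure D3:**
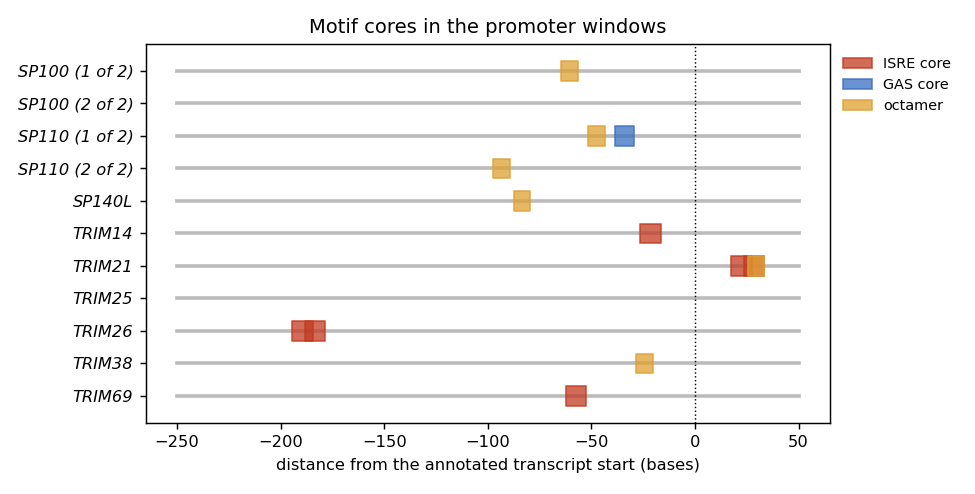
Positions of the ISRE core (red), the GAS core (blue) and the octamer (yellow) in the 11 promoter windows, as distance in bases from the annotated start (dotted line), with genes that have more than 1 window numbered by genome position. The ISRE core farthest from its start (194 bases) is that of TRIM26, which was not called. TRIM14, also not called, has its core 26 bases before its start.

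The size of the response was next compared between lines. Of the 9 tested genes, 8 had a log2 ratio of at least 1 in A498 (10.5% of all tested genes), 7 in A375 (10.5%), 7 in H1703 (3.30%) and 6 in 549 (6.81%). With library size alone the counts were 7 in A498, where TRIM38 fell to 0.945, and 6 in A375, where PML fell to 0.944. These single-line ratios have no replicate check. A498 gave the largest ratio for 6 of the 9 genes, and 549, A375 and H1703 for 1 each (SP140L, TRIM25 and TRIM38). How often each line gives the largest ratio over all genes was not counted, so these counts describe the members only. The median ratio over the 9 genes was 2.20 in A498, 1.67 in 549, 1.39 in A375 and 1.85 in H1703, the last also with TRIM38 at its bound.

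By edgeR, no member passed the test of a difference in response between lines. With the lung pair set against A375 and A498, and then 549, A375, A498 and H1703 each set against the remaining lines, edgeR called 0 of 9 members and 0% of all genes (adjusted p of 0.05). At an unadjusted p under 0.05 there were 603, 485, 1153, 585 and 418 genes in these 5 comparisons, of which 1, 1, 1, 2 and 2 were members. The lowest unadjusted p of a member was for SP140L in 549, whose log2 change was 4.89 ± 0.69 (SE) above that of the other lines (edgeR adjusted p = 0.67). DESeq2 gave that difference as 4.95 with an adjusted p of 0.046, and limma-voom called 0 genes in each of the 5 comparisons. TRIM38 in H1703 had the largest difference, 5.92 ± 1.40 (edgeR adjusted p = 1), a fitted value that depends on its 0 count. SP110 in A498 had a difference of 1.89 ± 0.53 (edgeR adjusted p = 0.83) and TRIM25 in H1703 one of -1.42 ± 0.50 (adjusted p = 1). A single line was assumed to vary like the others in these fits, and a p that misses the threshold does not show an equal response.

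The level of each gene was also compared between lines. The cell line term of the fit, which averages over both arms, was called for 7 of the 9 genes (all but SP140L and TRIM25), beside 56.3% of all genes tested, so differences between lines were common throughout the table. For PML the order from low to high was 549, H1703, A375 and A498. A375 and H1703 were not told apart (difference -0.22 ± 0.28, edgeR adjusted p = 0.59), while A498 was above A375 by a log2 of 2.05 ± 0.29 (adjusted p = 0.0010) and H1703 above 549 by 1.14 ± 0.29 (adjusted p = 0.020). SP100 had the same order, with A375 and H1703 not told apart (adjusted p = 0.073). For TRIM21, A498 stood above A375 by 1.98 ± 0.29 (adjusted p = 0.0013), and 549, A375 and H1703 were not told apart (adjusted p from 0.25 to 0.71).

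Among pairs of lines, 4 of the 9 genes were called between A375 and 549 (29.5% of all genes), 6 between A498 and 549 (26.6%) and 3 between H1703 and 549 (28.3%). Between A498 and A375, 6 were called (31.4%), between H1703 and A375 3 (33.9%) and between H1703 and A498 4 (37.3%). A498 had the highest untreated level for 6 of the 9 genes and the highest treated level for 8, with SP140L in treated H1703 as the exception. How often A498 ranks highest over all genes was not counted, so this rank is not given as a trait of these genes. TRIM14 was lower in A375 than in A498 by a log2 of 2.92 ± 0.53 (edgeR adjusted p = 0.0036), and TRIM26 was lower in A375 than in A498 by 1.23 ± 0.29 (adjusted p = 0.012). The level of TRIM25 was not called for any pair.

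The other TRIM genes were counted beside all genes. Of 55 in the table, 39 were tested, 2 were higher and 0 lower (beside 1.59% and 0.327% of all genes), with a median log2 change of 0.15. At an unadjusted p under 0.05 there were 10 of the 39, beside 2836 of the 13457 genes tested. Of the 10, 8 were higher, and DESeq2 called 6 higher and limma-voom 2. TRIM22, an interferon-induced nuclear TRIM protein, rose by 4.19 ± 0.32 (SE, edgeR adjusted p = 0.00040), with counts of 157 and 2192 (untreated and treated) for A498, 9 and 137 for A375, 3 and 116 for H1703 and 1 and 71 for 549. TRIM56, a ligase linked to cytosolic DNA sensing, rose by 1.28 ± 0.22 (adjusted p = 0.026) and was lost when A498, A375 or 549 was left out (adjusted p = 0.13, 0.066 and 0.055). The antiviral factor TRIM5 had a change of 0.55 ± 0.30 (adjusted p = 0.32). TRIM31, named after its values were seen, was removed by the filter and had 62 and 306 counts in untreated and treated 549 and 2 and 81 in A498, against at most 5 in A375 and 0 in H1703.

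**Figure D4:**
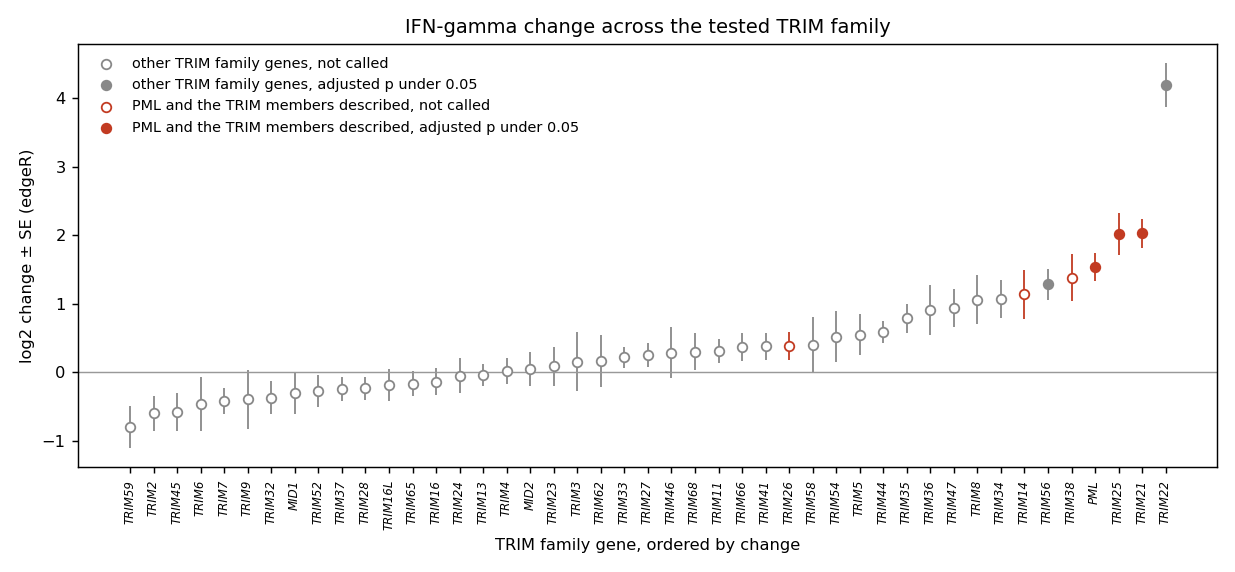
Fitted log2 change with SE (edgeR, 4 lines) of PML, the TRIM members described (red) and 39 other TRIM family genes (grey), ordered by change, with filled symbols for an adjusted p under 0.05. TRIM22 (4.19) lies above all others, followed by TRIM21 (2.03) and TRIM25 (2.02), while TRIM59 is lowest (-0.80, not called).

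Genes for other nuclear body proteins and for SUMO attachment are given beside the share over all genes, of which 1.59% were called higher and 0.327% lower. Of 21 PML body partners, all tested, 1 was higher and 0 lower, with a median log2 change of 0.05. It was MORC3, an ATPase found in PML bodies, which rose by 0.88 ± 0.18 (SE, edgeR adjusted p = 0.048) and was lost whichever line was left out (adjusted p from 0.069 to 0.22). DESeq2 called 2 partners higher and 2 lower, and limma-voom 2 higher and 1 lower. Of 18 tested SUMO pathway genes, 0 were called by edgeR, DESeq2 or limma-voom, and 1 had an unadjusted p under 0.05. That gene was RNF4, the ubiquitin ligase that targets SUMO-modified PML, with a change of 0.55 ± 0.22 (adjusted p = 0.20). SUMO2 had a change of -0.37 ± 0.19 (adjusted p = 0.29).

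Partners of the TRIM proteins in RNA and DNA sensing were called in part. Of 16 tested genes, 4 were higher and 0 lower (beside 1.59% and 0.327% of all genes), with a median log2 change of 0.46. DESeq2 called 5 higher and limma-voom 4. DDX58, which encodes RIG-I, rose by 3.21 ± 0.39 (SE, edgeR adjusted p = 0.0035) and IFIH1, the sensor MDA5, by 3.74 ± 0.43 (adjusted p = 0.0029). ZC3HAV1, an antiviral zinc finger protein, rose by 0.92 ± 0.17 and was lost without 549, A498 or H1703 (adjusted p = 0.13, 0.19 and 0.062). TICAM1, the adaptor TRIF, rose by 1.00 ± 0.20 and was lost whichever line was left out (adjusted p from 0.062 to 0.22). Of 9 tested upstream factors, 5 were higher by edgeR (beside 1.59% of all genes), 6 by DESeq2 and 5 by limma-voom. Those called by edgeR included STAT2 (2.59 ± 0.34), IRF9 (2.39 ± 0.27) and JAK2 (1.89 ± 0.38). JAK2 was lost when H1703, A498 or A375 was left out (edgeR adjusted p = 0.057, 0.16 and 0.10).

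Genes outside the list were ranked by the Pearson correlation of log2 CPM with each member over the 8 libraries, which share 4 lines and 2 arms. The closest were IFI44 (r = 0.974) and OAS2 (0.968) for PML, PARP12 (0.994) and DRAM1 (0.991) for SP100, and IFIT5 (0.984) and HELZ2 (0.981) for SP110. For TRIM25 they were IRF9 (0.975) and DDX60 (0.967), and for TRIM21 PSMB10 (0.981) came first. Each of these named genes was itself called higher with IFN-gamma. The closest genes to the 4 members that were not called were not called either, namely FAM231D (0.960) and BTF3L4 (0.958) for SP140L, HIATL1 (0.974) and NUDCD1 (0.971) for TRIM14, IFNAR2 (0.985) and PGM5P2 (0.980) for TRIM26, and SNAPIN (0.990) and PLD6 (0.985) for TRIM38. They describe likeness over 8 libraries and no more.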

How the data were processed

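Each library has a column of raw counts and one of log2 normalized values in the deposited table, per the file headers. Bowtie2, edgeR and hg19 are named, without versions, in the submitters' processing notes. Annotation, counting tool and strand setting were not given in the sources used here, and the labels name both a poly(A) SMARTer stranded kit and a QuantSeq 3' kit. Rows were summed by symbol (25737 rows, 24462 symbols), which affects 286 symbols. The number of unused sample columns was 0.

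Counts were filtered by edgeR's filterByExpr (minimum count 10, minimum total 15), leaving 13457 genes, and scaled by TMM. For treatment, edgeR's quasi-likelihood test (edgeR 4.0.16, R 4.3.3) was run across all genes with cell line as a term, since each line is in both arms. This leaves 3 residual degrees of freedom, and calls are at a Benjamini-Hochberg adjusted p of 0.05. The cell line pairs the libraries by label, and deviations from the arm means correlated at 0.85 to 0.90 within a line. SE is the log2 change divided by the root of F. It reflects the spread left after line and treatment, which edgeR moderates with information from all genes. It is therefore not the spread of a gene's own line ratios alone. The p-values rest on the same moderation, beyond the 3 residual degrees of freedom. Line ratios are log2 CPM ratios with a prior count of 2. Interactions, the line term and line pairs were tested in the same framework. Bounds use 3 counts in the library at 0, and intervals are 95%. Levels of different genes were not compared, since the counts are not scaled by length. Promoters came from RefSeq (GRCh38.p14), and shared 50-base words from GENCODE transcripts. Fits were also run on simulated counts, with changes placed only in well-detected genes and the spread set by level alone. Those runs do not cover low counts or gene-specific spread, and their results are not reported here.

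The genes and lists were chosen with earlier results of these data known. The text names all members, up to 6 called genes of each list with the smallest p (or the top 2 where none was called), and the 2 genes most correlated with each tested member; some genes that this rule names are not reported here. TRIM5, TRIM31, TRIM59 and SP140 were named after their values were seen. Alternatives were RLE, upper quartile and no scaling, no filter, a CPM filter, DESeq2 1.42.0, limma-voom (limma 3.58.1), the likelihood ratio test, robust estimation, no line term, leaving out lines, the authors' log2 values, prior counts and motif length.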

Additional observations from a re-analysis of the deposited data

Results flagged for a closer look

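In 29 groups of 4 values (levels and ratios of the 9 tested genes, and total counts), the highest or lowest value was compared with its nearest neighbour, and 6 stood apart. The cutoff is one that about 1 in 20 groups of replicates from a single normal population would pass. Values from different cell lines, with levels on a linear scale, are not such replicates. The rate therefore does not hold for these groups, and the flags are descriptions. The total was 9291154 counts in untreated A375, while untreated 549, A498 and H1703 had 6750962 to 7101076. PML in treated A498 was at 347.4 CPM, against 26.1 to 65.4 in the other treated libraries. TRIM21 in A498 was at 14.5 CPM untreated, against 4.39 to 5.22, and at 68.2 CPM treated, against 14.8 to 23.8. SP140L in treated 549 was at 28.6 CPM, against 79.2 to 81.4, and its log2 ratio in 549 was 5.71, against 1.39 to 2.01.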

How the results depend on the processing

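All 9 tested genes had a fitted change above 0 under each of 15 alternatives. SP100, PML, TRIM21, SP110 and TRIM25 kept their call under RLE, upper quartile and library-size scaling, both other filters, DESeq2, limma-voom, the likelihood ratio test, robust estimation and the authors' log2 values. Against 258 calls in all and 5 among the members, there were 884 and 8 with no filter, 1319 and 8 with the likelihood ratio test, and 1036 and 6 with DESeq2, where TRIM38 was added (adjusted p = 0.0046). With no cell line term, which ignores the pairing, edgeR called 0 genes and 0 members (543 genes at an unadjusted p under 0.05). Leaving out 1 line gave 153 calls without 549 and a range of 106 to 455, with 3 to 5 members, lowest without A498. For differences in response, where edgeR called 0 genes, DESeq2 called 7 for the lung lines, 9 for 549, 71 for A375, 19 for A498 and 16 for H1703. Signs turned for TRIM14 in 549 with library size alone (-0.012), for TRIM21 in the lung comparison with limma-voom (-0.025), for TRIM38 in A375 with DESeq2 (-0.48) and for SP140L in H1703 with limma-voom (0.082), none of them called. The ratio of TRIM38 in H1703 was 5.14 with a prior count of 0.5 and 2.15 with 5. The longer ISRE, which adds CT to the core, was in 1 member window, against 4 for its core and 6 for the octamer AAGTGAAA, which was added after the windows had been seen. The cause was not tested in any of these cases. With 1 library per line and arm, changes within a line rest on counting error alone, which is widest for TRIM69, for SP140L in 549 and for TRIM38 in H1703.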
